A study of Mus musculus with 9 samples.

Results

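Primitive endoderm factors and receptors are described here across 9 microarrays from C57BL/6 mouse cells: 10 genes chosen by name, each with a probe set on the array, of 19938 genes tested. The members are the transcription factor genes Gata4, Gata6, Sox17, Sox7, Foxa2 and Hnf4a, the endocytic adaptor Dab2, the endocytic receptors Cubn and Lrp2, and the hormone receptor Pth1r. Total RNA came from 3 samples of dedifferentiated mouse cardiac fibroblasts, which the series title describes as made by a protein-based method, 3 samples of C57 ES (embryonic stem) cells and 3 samples of adult mouse cardiac fibroblasts, each read on 1 Affymetrix Mouse Gene 1.0 ST array. The protein, its dose and time are not given in the sources used here, and neither is the origin of the replicates (separate animals, separate cultures or repeats of 1 RNA). The fibroblast samples carry ES cells in their source field too, and were grouped by title. A row was taken where the platform annotation gives it 1 symbol, and where a gene had several rows the one with the highest mean over the 9 arrays was used. That choice concerned Dab2, whose rows averaged 8.91 and 2.67 on the log2 scale. The genes were proposed with earlier results of these arrays in view, so their differences and adjusted p-values describe their place in the fit over all genes and are not independent support.

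Primitive endoderm is the layer that forms on the surface of the inner cell mass of the blastocyst and gives rise to the visceral and parietal endoderm of the yolk sac. GATA6 and then GATA4, SOX17 and SOX7 establish its identity in response to FGF signalling, against NANOG, which holds cells in the epiblast fate that ES cells represent. Its descendants take up maternal proteins through megalin (Lrp2) and cubilin (Cubn), with DAB2 linking these receptors to clathrin. Several members also work elsewhere: GATA4 and GATA6 act in the heart, including its mesenchymal cells, SOX7 and SOX17 in endothelium, and DAB2 in many cells that take up ligands, so their levels alone do not mark a cell as endoderm.

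Start-site sequences are shown for Cubn and Lrp2, the receptor pair whose levels moved together, and for Dab2 and Foxa2, for which a window held a word bound by GATA factors. Each is 300 bases from RefSeq, GRCm38.p6, from 250 bases before to 50 bases after an annotated start, 5′ to 3′ on the gene's strand, with GATA words in capitals (a word on the opposite strand is shown as it reads here).
Cubn, chr2:13491827-13492126, minus strand: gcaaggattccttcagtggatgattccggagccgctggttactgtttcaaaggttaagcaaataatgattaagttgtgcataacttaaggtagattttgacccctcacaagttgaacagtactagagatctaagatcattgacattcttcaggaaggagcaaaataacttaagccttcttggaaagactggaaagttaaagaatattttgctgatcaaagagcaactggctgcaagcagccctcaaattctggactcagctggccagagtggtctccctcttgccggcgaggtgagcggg
Lrp2, chr2:69585980-69586279, minus strand: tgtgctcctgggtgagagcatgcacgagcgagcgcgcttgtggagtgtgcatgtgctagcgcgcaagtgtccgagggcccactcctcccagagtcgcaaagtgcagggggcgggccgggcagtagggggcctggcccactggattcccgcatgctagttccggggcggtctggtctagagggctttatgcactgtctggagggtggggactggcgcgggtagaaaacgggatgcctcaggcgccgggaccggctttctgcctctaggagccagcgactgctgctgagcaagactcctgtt
Dab2, chr15:6299539-6299838, plus strand: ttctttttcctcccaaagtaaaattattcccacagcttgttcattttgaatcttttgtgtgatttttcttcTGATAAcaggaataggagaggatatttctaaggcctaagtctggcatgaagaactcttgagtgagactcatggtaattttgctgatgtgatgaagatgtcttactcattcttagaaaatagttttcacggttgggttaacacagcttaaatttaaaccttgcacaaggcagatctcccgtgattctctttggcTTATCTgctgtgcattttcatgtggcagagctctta
Foxa2, chr2:148045415-148045714, minus strand: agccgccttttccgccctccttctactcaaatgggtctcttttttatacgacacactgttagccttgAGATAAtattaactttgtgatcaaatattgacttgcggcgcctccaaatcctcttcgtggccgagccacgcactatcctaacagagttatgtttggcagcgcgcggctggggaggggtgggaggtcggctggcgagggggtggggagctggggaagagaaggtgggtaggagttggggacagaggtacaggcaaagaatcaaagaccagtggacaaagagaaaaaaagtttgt
The search covered 12 windows of the 6 members with an entry, on both strands. For GATA factors the search used AGATAA as 1 form of the word, AGATAG as another form of it, TGATAA as another form again, and TGATAG as the last of the forms. For SOX factors the word searched was AACAAT in every window. For forkhead factors the search used TGTTTAC as 1 form of the word, followed by TGTTTGC as the other form. GATA words were found at 179 bases upstream and from 15 to 20 bases downstream of 1 of 2 Dab2 starts, 183 bases upstream of 1 of 3 Foxa2 starts, and 52 bases upstream of 1 of 2 Hnf4a starts. No GATA word stood in the windows of Cubn, Lrp2 or Pth1r, no member window held the SOX or forkhead words, and no matches overlapped. Of 32851 such windows in RefSeq, 29.8% held a GATA word, 10.7% the SOX word and 8.48% a forkhead word. These matches are letters in a window and say nothing about binding.

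The members followed several patterns over the arrays. Gata4, Gata6 and Dab2 had high values in all groups, the highest in dedifferentiated cells. Sox17, Foxa2 and Pth1r were highest in dedifferentiated cells and lowest in fibroblasts. Sox7 was highest in dedifferentiated cells, with ES and fibroblast arrays overlapping. Cubn and Lrp2 were at like levels in dedifferentiated and ES cells and far lower in fibroblasts. Hnf4a was dim throughout. Values are log2 expression after RMA. The median of all rows of an array lay between 4.647 and 4.859, and the files hold no detection call. A call, higher or lower, needed a limma p under 0.05 after Benjamini-Hochberg adjustment over all genes, together with a difference of at least 1 log2 unit. Counts called in the lists below are to be read beside the shares of all genes. In dedifferentiated cells against fibroblasts, 8.79% were called higher and 10.1% lower, and in ES cells against fibroblasts 8.85% and 10.4%. Between dedifferentiated and ES cells the shares were 1.01% and 0.547%.

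**Figure D1:**
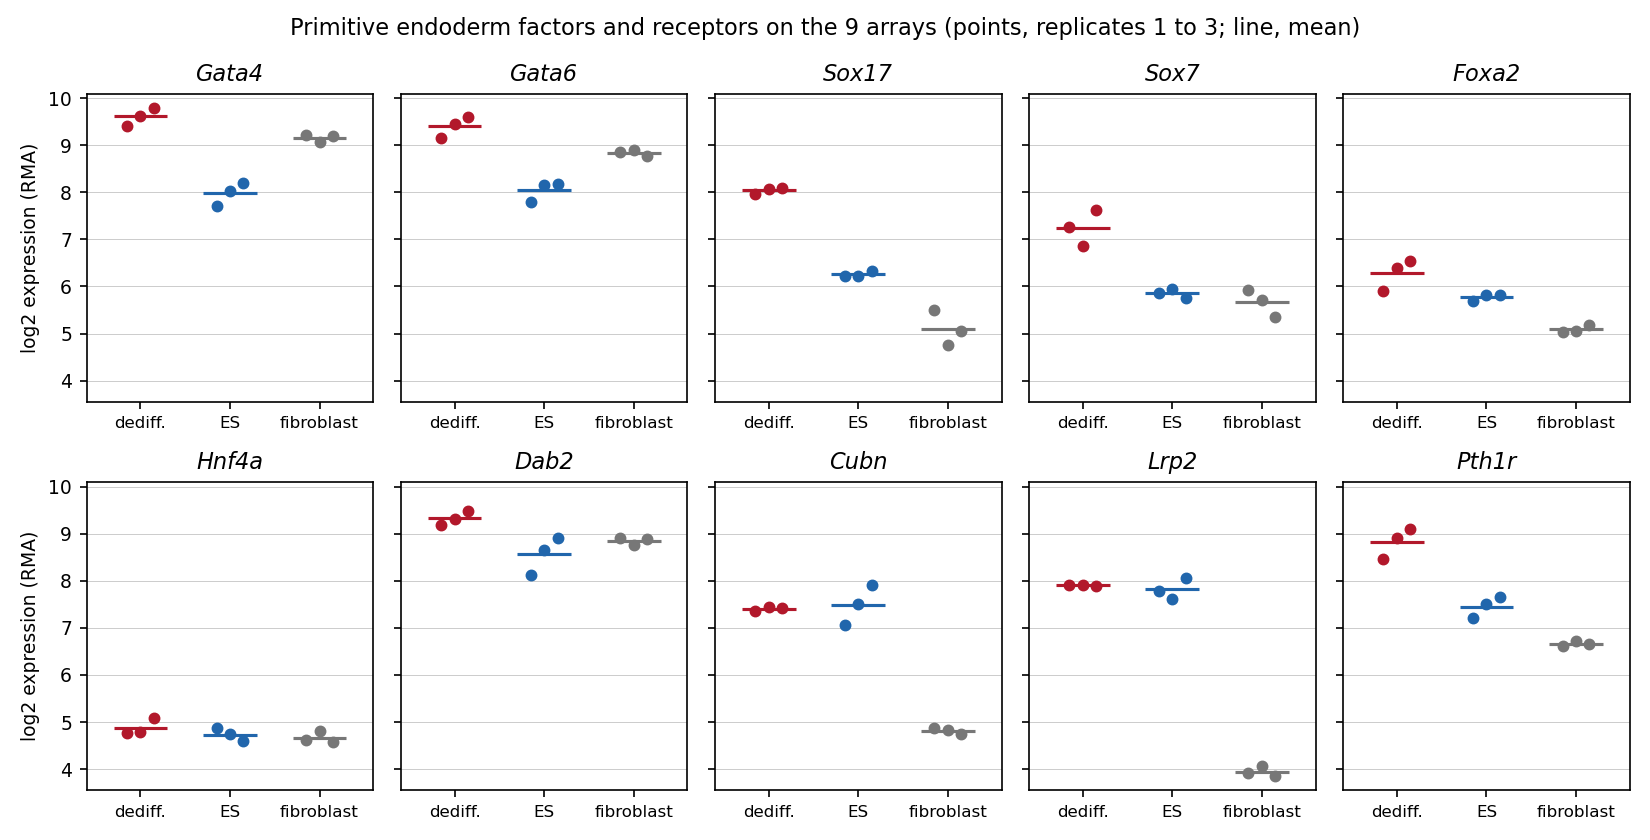
Log2 expression of each of the 10 members on the 3 dedifferentiated, 3 ES and 3 fibroblast arrays (points), with the group mean (line). Gata4 and Gata6 are at 7.70 or above on every array, while Lrp2 lies at 3.85 to 4.06 in fibroblasts and above 7.6 on the other arrays.

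GATA4, a zinc finger activator of endoderm and heart genes, had high values in every group. Gata4 had values of 9.41, 9.62 and 9.80 in dedifferentiated cells, 7.70, 8.03 and 8.20 in ES cells, and 9.21, 9.07 and 9.20 in fibroblasts. The groups did not overlap, and the ES arrays were the low ones. Against ES cells, Gata4 rose by 1.63 log2 units in dedifferentiated cells (3.10-fold, 95% interval 1.34 to 1.92, limma adjusted p = 1.6e-05). In that comparison 35 of 19938 genes had a larger difference. Gata4 was lower in ES cells than in fibroblasts, with a difference of -1.18 (-1.47 to -0.89). Between dedifferentiated cells and fibroblasts the difference was 0.45 (0.16 to 0.74, limma adjusted p = 0.014), short of the size required for a call.

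GATA6, which acts earliest among these factors in the blastocyst, followed the same order. Gata6 had values of 9.16, 9.46 and 9.59 in dedifferentiated cells, 7.79, 8.16 and 8.18 in ES cells, and 8.85, 8.89 and 8.76 in fibroblasts. Again no 2 groups overlapped. Gata6 rose by 1.36 log2 units in dedifferentiated cells relative to ES cells (2.57-fold, 95% interval 1.07 to 1.64, limma adjusted p = 4.4e-05). It differed by -0.79 (-1.07 to -0.50) between ES cells and fibroblasts and by 0.57 (0.29 to 0.86) between dedifferentiated cells and fibroblasts, below the required size in both cases. In bulk RNA, fewer cells of a type and less RNA per cell cannot be told apart, here and in all results that follow.

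Fibroblast markers were set beside the GATA genes, and the part of fibroblasts in the Gata4 and Gata6 values was not tested. All 10 of 10 cardiac fibroblast markers fell in dedifferentiated cells relative to fibroblasts, with a median of -5.57 log2 units, and Col3a1 and Postn, both of the matrix, differed by -6.67 and -6.26. The mean log2 value of the list was 5.43 to 5.50 on dedifferentiated arrays, 5.03 to 5.16 on ES arrays and 10.40 to 10.49 on fibroblast arrays. Of these 10 genes, Dcn was the 1 gene that rose in dedifferentiated cells relative to ES cells, by 1.20. Of 11 cardiac partners of GATA factors, 5 fell and 1 rose in dedifferentiated cells against fibroblasts (median -1.0, against 0.006 for all genes). Tcf21 and Tbx20, transcription factors of the epicardium and heart, differed by -6.63 and -5.26, and Hand1 by 1.27. The same list had 5 lower and 0 higher in ES cells against fibroblasts, Tcf21 and Tbx20 differing by -6.65 and -6.03. Between dedifferentiated and ES cells 0 of 11 were called by limma at the required size, and the gene with the smallest p, Srf, differed by 0.89 (adjusted p = 4.2e-05).

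SOX17, an HMG-box factor needed for extraembryonic and definitive endoderm, had the largest difference among the 6 factors in both comparisons with dedifferentiated cells. Sox17 had values of 7.97, 8.06 and 8.10 in dedifferentiated cells, 6.22, 6.22 and 6.33 in ES cells, and 5.49, 4.75 and 5.06 in fibroblasts. The 3 groups were fully apart, with the fibroblast arrays the most spread. Relative to ES cells, Sox17 rose by 1.79 log2 units in dedifferentiated cells (3.45-fold, 95% interval 1.46 to 2.11, limma adjusted p = 2.0e-05), and 24 genes had a larger difference. The rise over fibroblasts was 2.95 (7.71-fold, 2.62 to 3.27) in dedifferentiated cells and 1.16 (0.83 to 1.49) in ES cells. The difference between ES cells and fibroblasts was 0.99, below the required size, without fibroblast replicate 2, the array with the lowest value.

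SOX7, a close relative that is switched on in the same lineage, separated only the dedifferentiated arrays. Sox7 had values of 7.27, 6.85 and 7.63 in dedifferentiated cells, 5.85, 5.95 and 5.76 in ES cells, and 5.93, 5.72 and 5.35 in fibroblasts. ES and fibroblast arrays overlapped. Sox7 rose by 1.40 log2 units over ES cells (2.64-fold, 95% interval 0.99 to 1.81, limma adjusted p = 3.6e-04) and by 1.59 (3.00-fold, 1.18 to 2.00) over fibroblasts. The difference between ES cells and fibroblasts was 0.18 (-0.23 to 0.60, adjusted p = 0.48).

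The third SOX factor of that subfamily, Sox18, which acts in vessels, averaged 5.32 ± 0.19 in dedifferentiated cells, 5.41 ± 0.32 in ES cells and 5.32 ± 0.24 in fibroblasts (log2 mean ± SD, n = 3 each) and was not called. Sox18 was named after its values were seen. Because SOX7 and SOX17 also belong to endothelium, endothelial markers were set beside them. Of 12 such markers, 2 were higher in dedifferentiated cells relative to ES cells: the vascular cadherin Cdh5 by 1.38 and the adhesion protein Esam by 1.07. Esam was at 0.98, short of a call, without dedifferentiated replicate 3. The marker Tek, named after its values were seen, was at 0.94 and was called, at 1.05, only without ES replicate 3. The list's mean log2 value was 5.55 to 5.66 on dedifferentiated arrays, 5.23 to 5.27 on ES arrays and 5.23 to 5.45 on fibroblast arrays. Against fibroblasts, 5 rose and 2 fell in dedifferentiated cells, with Pecam1 at 2.44, Esam at 1.65, Eng at -3.68 and Emcn at -1.36, and in ES cells 2 rose and 2 fell, with Pecam1 at 2.48, Egfl7 at 1.27, Eng at -3.70 and Emcn at -1.51. Tek, among the 5 that rose in dedifferentiated cells against fibroblasts (1.06), lost that call without fibroblast replicate 1 (0.95). The part of endothelial cells in the Sox7 and Sox17 values was not tested.

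FOXA2, a forkhead factor of visceral and definitive endoderm, was called in 1 of the 3 comparisons. Foxa2 had values of 5.91, 6.40 and 6.55 in dedifferentiated cells, 5.70, 5.82 and 5.82 in ES cells, and 5.03, 5.06 and 5.18 in fibroblasts. The arrays of the groups did not overlap, although 1 dedifferentiated array lay close to the ES arrays. Foxa2 rose by 1.20 log2 units over fibroblasts in dedifferentiated cells (2.30-fold, 95% interval 0.89 to 1.51, limma adjusted p = 1.6e-05). It differed by 0.51 (0.20 to 0.82) from ES cells, and ES cells differed by 0.69 (0.38 to 1.00) from fibroblasts, neither of the required size.

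HNF4A, a nuclear receptor of visceral endoderm and liver, was not called in any comparison. Hnf4a had values of 4.76, 4.78 and 5.08 in dedifferentiated cells, 4.87, 4.74 and 4.59 in ES cells, and 4.62, 4.80 and 4.57 in fibroblasts. All groups overlapped. The differences were 0.21 (95% interval -0.04 to 0.45) for dedifferentiated cells against fibroblasts, 0.07 (-0.17 to 0.31) for ES cells against fibroblasts and 0.14 (-0.11 to 0.38) for dedifferentiated against ES cells. These values lie near the array medians, and with no detection call the intervals do not bound a change of a transcript that may be below background.

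DAB2, the clathrin adaptor that binds the tails of LDL receptor relatives, was at high values everywhere. Dab2 had values of 9.18, 9.32 and 9.49 in dedifferentiated cells, 8.13, 8.65 and 8.90 in ES cells, and 8.90, 8.75 and 8.89 in fibroblasts. The dedifferentiated arrays lay above all others, and the ES and fibroblast arrays overlapped. Dab2 differed by 0.77 (95% interval 0.41 to 1.13, limma adjusted p = 0.0061) between dedifferentiated and ES cells and by 0.49 (0.12 to 0.85) between dedifferentiated cells and fibroblasts, both below the required size. Between ES cells and fibroblasts the difference was -0.29 (-0.65 to 0.08). Its other row held values of 2.51 to 3.00 on all arrays. Macrophages also use DAB2, and the part of such cells in the Dab2 values was not tested. Of 8 macrophage markers, 3 fell and 1 rose in dedifferentiated cells against fibroblasts, with the lysozyme Lyz2 at -5.65, the complement gene C1qb at -1.96 and Cd68 at 1.05. Cd68 lost its call without fibroblast replicate 2, which left 0 rising. In the comparison of all arrays, 10.1% of all genes fell and 8.79% rose. In ES cells, also 3 fell and 1 rose (Lyz2 at -5.52, C1qb at -2.02, Cd68 at 1.75), and between dedifferentiated and ES cells 0 of 8 were called by limma, Cd68 having the smallest p with a difference of -0.69 (adjusted p = 6.8e-04).

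The receptors of protein uptake separated fibroblasts from both other groups. LRP2, or megalin, is a very large receptor of the LDL receptor family. Lrp2 had values of 7.91, 7.92 and 7.89 in dedifferentiated cells, 7.79, 7.61 and 8.06 in ES cells, and 3.91, 4.06 and 3.85 in fibroblasts. The fibroblast arrays were far below the rest, and the other 2 groups overlapped. Lrp2 rose by 3.97 log2 units over fibroblasts in dedifferentiated cells (15.6-fold, 95% interval 3.73 to 4.20, limma adjusted p = 7.7e-11) and by 3.88 (14.7-fold, 3.64 to 4.12) in ES cells. The fibroblast values of Lrp2 lie below the array medians of 4.647 to 4.859. With no detection call, the transcript may be below background in fibroblasts, so these intervals do not bound its rise. Between dedifferentiated and ES cells the difference was 0.09 (-0.15 to 0.33).

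CUBN, or cubilin, binds its ligands on the outside of the cell and depends on amnionless and megalin for internalisation. Cubn had values of 7.35, 7.45 and 7.43 in dedifferentiated cells, 7.07, 7.50 and 7.90 in ES cells, and 4.87, 4.83 and 4.74 in fibroblasts. As for Lrp2, the fibroblast arrays stood apart and the dedifferentiated arrays fell inside the range of the ES arrays. Cubn rose by 2.6 log2 units over fibroblasts in dedifferentiated cells (6.06-fold, 95% interval 2.24 to 2.96, limma adjusted p = 7.4e-08) and by 2.68 (6.41-fold, 2.32 to 3.04) in ES cells. The fibroblast values of Cubn lie near the array medians, so the limit given for Lrp2 holds for its rises over fibroblasts too. The dedifferentiated and ES cells differed by -0.08 (-0.44 to 0.28). Kidney tubule cells also carry both receptors. Of 7 tubule markers, 0 were called by limma in any comparison. Their list mean was 4.37 to 4.42 on dedifferentiated arrays, 4.32 to 4.53 on ES arrays and 4.31 to 4.51 on fibroblast arrays. The part of such cells in the Cubn and Lrp2 values was not tested.

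The intracellular and surface partners of these receptors gave 1 call in all. Of 9 measured partners of 10 listed, 1 (11.1%) rose in dedifferentiated cells against fibroblasts, near the 8.79% of all genes that rose. It was the endosomal chloride transporter Clcn5, at 1.19. None passed in ES cells against fibroblasts, where the adaptor subunit Ap2m1 had the smallest p with -0.65 (limma adjusted p = 4.4e-05), and none between dedifferentiated and ES cells, where Clcn5 differed by 0.70 (adjusted p = 7.4e-04). Amn, encoding amnionless and named after its values were seen, averaged 5.67 ± 0.12 in dedifferentiated cells, 5.85 ± 0.28 in ES cells and 5.45 ± 0.035 in fibroblasts (log2 mean ± SD, n = 3 each), and was not called.

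PTH1R, the receptor for parathyroid hormone and its related peptide, is an early marker of parietal endoderm in the mouse. Pth1r had values of 8.47, 8.90 and 9.09 in dedifferentiated cells, 7.20, 7.50 and 7.65 in ES cells, and 6.62, 6.73 and 6.65 in fibroblasts. The 3 groups were in that order with no overlap. Pth1r rose by 1.37 log2 units over ES cells (2.59-fold, 95% interval 1.04 to 1.71, limma adjusted p = 1.1e-04) and by 2.16 (4.46-fold, 1.82 to 2.49) over fibroblasts in dedifferentiated cells. In ES cells against fibroblasts it differed by 0.79 (0.45 to 1.12). Of 6 measured genes of the hormone axis of 9 listed, Arrb2 (an arrestin) rose by 1.39 and Gnaq (a G protein subunit) fell by 1.51 in dedifferentiated cells against fibroblasts, with 1.36 and -1.40 in ES cells. Relative to ES cells 0 of 6 were called by limma, and Gna11 had the smallest p with -0.16 (adjusted p = 0.21).

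**Figure D2:**
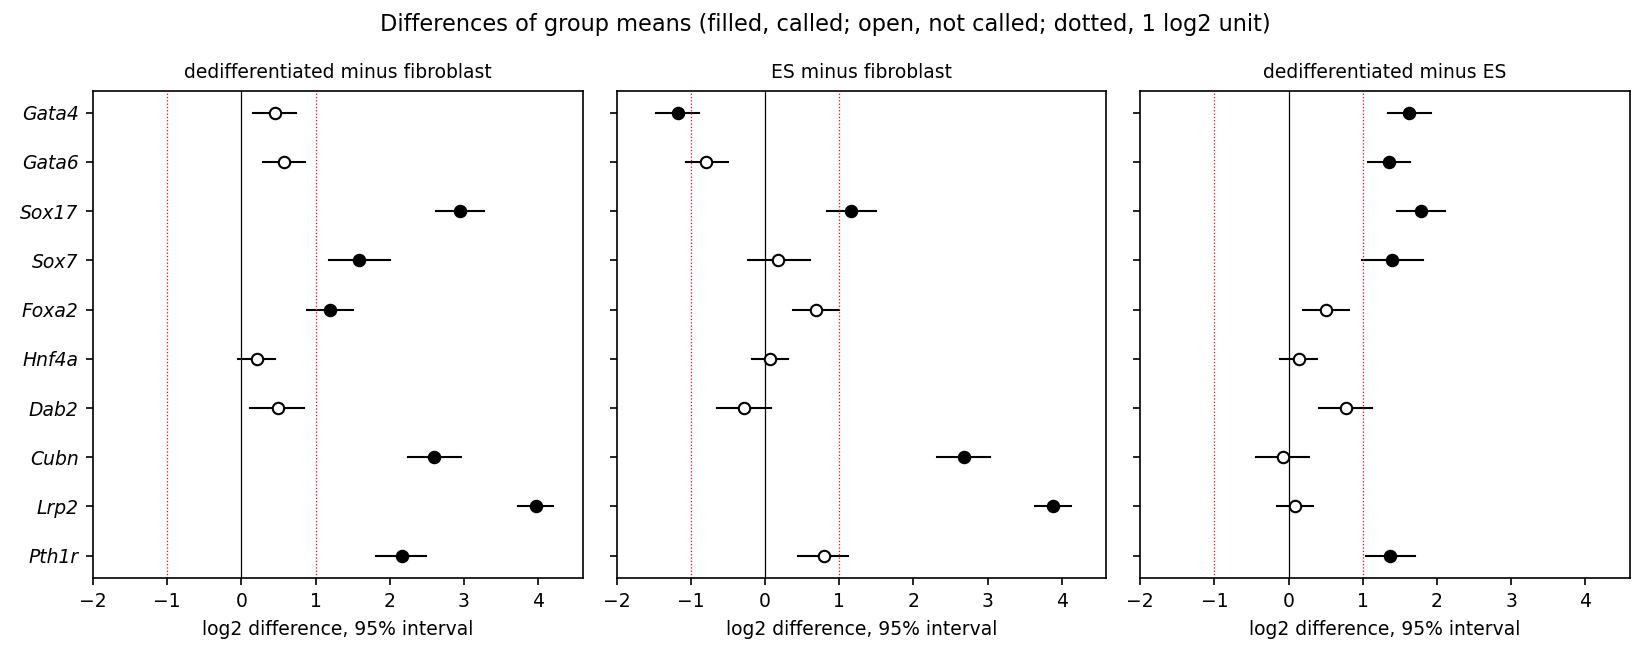
Differences of group means on the log2 scale with 95% intervals for the 10 members in the 3 comparisons. Filled points were called. In the comparison of dedifferentiated with ES cells the filled points are Gata4, Gata6, Sox17, Sox7 and Pth1r, between 1.36 and 1.79.

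In counts, 6 of the 10 members rose and 0 fell in dedifferentiated cells against fibroblasts, where 8.79% of all genes rose and 10.1% fell. Arrays did not overlap for 9 members higher and 0 lower, where 28.9% and 25.8% of all genes behaved so, and 9 members were higher with no minimum difference, against 25.0% of all genes. In ES cells against fibroblasts, 3 rose and 1 fell, where 8.85% of all genes rose and 10.4% fell. There 5 members were higher and 2 lower with no overlap of arrays, against 27.6% and 24.4% of all genes, and 5 were higher with no minimum difference, against 26.1%. Relative to ES cells, 5 of 10 members rose and 0 fell in dedifferentiated cells, where 1.01% of all genes rose and 0.547% fell. The median difference of the members in that comparison was 1.06 log2 units, against -0.002 over all genes. Arrays did not overlap, with dedifferentiated cells the higher, for 7 of 10 members, where 16.9% of all genes behaved so, and lower for 0, against 15.6%. With no minimum difference 7 members were higher, against 11.2% of all genes. These 3 comparisons share arrays and are not independent of each other.

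**Figure D3:**
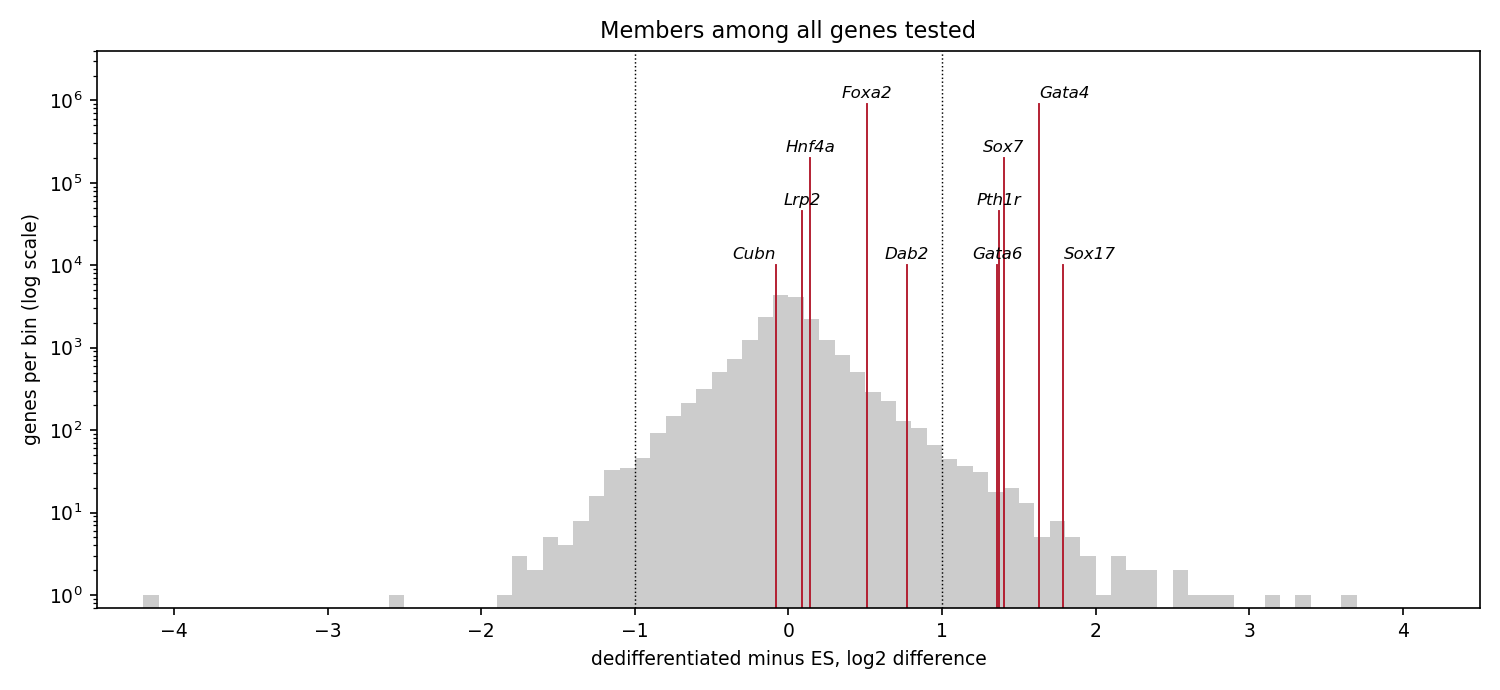
Histogram of the difference between dedifferentiated and ES cells over all 19938 genes, in bins of 0.1 log2 units with the number of genes on a log axis, and the 10 members as red lines. The 5 called members lie right of the dotted line at 1, in the thin upper flank that holds 1.01% of genes.

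Among the arrays of a group, members tended to be low or high together. Replicate 1 had the lowest value of the dedifferentiated arrays for 8 of 10 members and of the ES arrays for 7 of 10, where 41.0% and 40.3% of all genes had their lowest value there. Both held for Gata4, Gata6, Sox17, Foxa2, Dab2, Cubn and Pth1r, 7 of 10 members, against 14.4% of all genes. For Sox17, ES replicates 1 and 2 were nearly level, at 6.22 and 6.224. In fibroblasts no array held the lowest value for more than 5 members, on replicate 3, where 28.5% of all genes had theirs. The 3 dedifferentiated arrays spanned 0.03 log2 units for Lrp2 and 0.78 for Sox7, the narrowest and the widest span in that group, and the fibroblast arrays spanned 0.74 for Sox17. The order of the arrays was noticed after the values were seen.

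Beyond the members, a list of other primitive endoderm factors gave a split picture. Of 8 measured of 9 listed, 3 rose in dedifferentiated cells relative to ES cells: the water channel Aqp8 by 2.87 (95% interval 2.61 to 3.12), the forkhead gene Foxq1 by 1.53 (1.30 to 1.75) and the growth factor receptor Pdgfra by 1.37 (1.03 to 1.70). The median of the list was 0.03. Foxa1, Foxa3, Gata5 and Sox18, none of them called, belong both to this list and to that of family relatives below. Against fibroblasts, Aqp8 and Foxq1 rose by 5.26 and 2.62 in dedifferentiated cells and by 2.40 and 1.09 in ES cells. Foxq1 lost its call in ES cells without fibroblast replicate 2. Pdgfra, also a fibroblast gene, differed by -1.84 in dedifferentiated cells and -3.21 in ES cells.

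Parietal endoderm secretes a thick basement membrane, and 3 of 14 genes of that list rose in dedifferentiated cells relative to ES cells, with 0 lower. These were thrombomodulin (Thbd) at 2.56, the plasminogen activator Plat at 1.35 and the repressor Snai1 at 1.03. Snai1 was named after its values were seen and was at 0.99, short of a call, without ES replicate 1. The median was 0.57, against -0.002 over all genes. The laminin chain Lama1 averaged 11.29 in dedifferentiated cells, 10.46 in ES cells and 4.67 in fibroblasts, a rise of 6.61 and 5.79 over fibroblasts, and the keratin Krt19 rose by 2.84 and 2.80. In dedifferentiated cells against fibroblasts 4 rose and 4 fell, with Nid1 at -1.41 and Serpinh1 at -1.28, and in ES cells 3 rose and 5 fell, with Thbd at -3.51 and Plat at -2.48.

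Of 13 measured genes for secreted products of mature visceral endoderm, 0 were called by limma in dedifferentiated cells relative to ES cells, and fibrinogen beta (Fgb) had the smallest p with 0.50 (adjusted p = 0.02). Against fibroblasts, 2 rose and 1 fell in dedifferentiated cells, and 1 rose and 1 fell in ES cells. The shares of all genes were 8.79% higher and 10.1% lower in dedifferentiated cells, and 8.85% and 10.4% in ES cells. The apolipoprotein gene Apoa2 rose by 2.51 in dedifferentiated cells and by 2.15 in ES cells, and transferrin (Trf) differed by -2.89 and -2.80. The co-activator Cited1 rose by 1.06 in dedifferentiated cells, a call lost without dedifferentiated replicate 2 (0.92) or fibroblast replicate 2 (0.87). In ES cells Cited1 was called only when fibroblast replicate 1 was left out (1.06). Afp, the alpha-fetoprotein of yolk sac and fetal liver, named after its values were seen, averaged 3.59 in dedifferentiated cells, 3.67 in ES cells and 3.68 in fibroblasts.

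Of 10 genes of anterior visceral and definitive endoderm, 2 rose in dedifferentiated cells relative to ES cells, Lefty1 by 2.20 and Otx2 by 1.25, and both also belong to the epiblast. Against fibroblasts 3 rose in each comparison. The largest rises were Otx2 at 4.48 and Lefty1 at 3.38 in dedifferentiated cells, and Otx2 at 3.23 and Eomes at 1.32 in ES cells. In ES cells Lefty1 rose by 1.18, a call lost without ES replicate 1 (0.95). Dkk1, named after its values were seen, was called in ES cells only without fibroblast replicate 1 (1.03). Of 11 measured genes of FGF and ERK signalling, which induces primitive endoderm, 1 rose in dedifferentiated cells relative to ES cells, the feedback inhibitor Spry4 by 1.78. The ligand Fgf4 rose by 3.24 in dedifferentiated cells and 3.62 in ES cells over fibroblasts, and the ERK-responsive factor Etv5 by 2.45 and 1.78. Fgfr1 differed by -1.39 and -1.21, and the phosphatase Ptpn11 by -1.24 and -1.43. The list had 4 higher and 2 lower in dedifferentiated cells, and 3 higher and 3 lower in ES cells. Some of these calls hung on 1 array, in Etv4 and Spry2, named after their values were seen. In ES cells both lost their call without ES replicate 2, and Spry2 also without fibroblast replicate 1 (-0.98). Etv4 was called in dedifferentiated cells only without dedifferentiated replicate 1 (1.03).

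Epiblast and ES cell factors, among them NANOG, which opposes primitive endoderm identity, were high as a list in dedifferentiated and ES cells. Of 11, 10 rose in dedifferentiated cells and 11 in ES cells against fibroblasts, Pou5f1 by 7.82 in each and Nanog by 6.69 and 6.97. Relative to ES cells 1 of 11 was called in dedifferentiated cells, Tfcp2l1, a factor of the naive state, which differed by -1.14 (95% interval -1.36 to -0.93). The list's mean log2 value was 8.76 to 8.88 on dedifferentiated arrays, 9.0 to 9.12 on ES arrays and 4.85 to 5.01 on fibroblast arrays. These are bulk values and do not show whether both sets of factors were in the same cells.

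**Figure D4:**
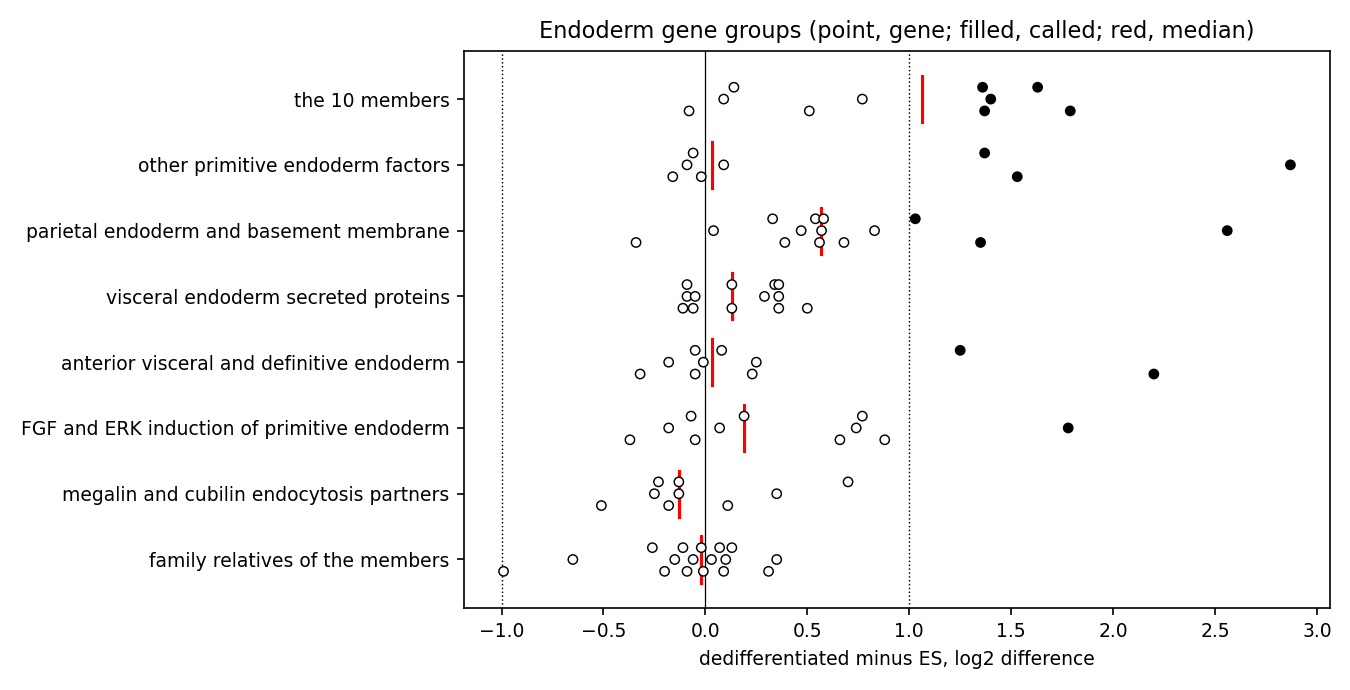
Difference between dedifferentiated and ES cells for each measured gene (points, filled where called) of the members and of 7 related lists, with the median of each list in red. The medians are 1.06 for the members, 0.57 for parietal endoderm and basement membrane, and between -0.13 and 0.19 for the other 6 lists. The lists of other primitive endoderm factors and of family relatives share Foxa1, Foxa3, Gata5 and Sox18.

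Relatives of the members by family gave no call between dedifferentiated and ES cells. Of 17 measured of 18 listed, 0 were called by limma, and the LDL receptor relative Lrp8 had the smallest p with -0.99 (adjusted p = 9.0e-06). Lrp8 passed the required size without dedifferentiated replicate 3 or ES replicate 3, which made the count of falls 1. Against fibroblasts, 1 rose and 2 fell in dedifferentiated cells (Lrp8 at 1.07, Lrp1 at -3.35, Vldlr at -1.58). In ES cells 2 rose and 2 fell (Lrp8 at 2.06, Dab1 at 1.06, Lrp1 at -2.69, Vldlr at -1.89). Among all genes, 8.79% rose and 10.1% fell in dedifferentiated cells, and 8.85% and 10.4% in ES cells. Dab1 lost its call in ES cells without ES replicate 2.

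The genes closest to each called member over the 9 arrays were found by the root mean square (RMS) difference after centring each gene on its mean, among 4464 called genes. Foxq1 was closest to Sox17 (0.170 log2 units), followed by the kinase Pim2 (0.231). Dusp4, a phosphatase of ERK, was closest to Gata6 (0.079), and the prostaglandin transporter Slco2a1 followed (0.129). Slco2a1 was also second for Gata4 (0.156), after the collagen prolyl hydroxylase P3h2 (0.135). Dlk1 and Prss35 were closest to Pth1r (0.141 and 0.144), Ldoc1 and Esam to Sox7 (0.232 and 0.241), Rpf2 and Lpar3 to Foxa2 (0.125 and 0.130). For the receptors these were Fut9 and Fnbp1l beside Cubn (0.104 and 0.142), and Sinhcaf and Tspan13 beside Lrp2 (0.133 and 0.145).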

How the data were processed

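RNA of 9 samples was measured on 1-colour arrays. The authors deposited log2 values, computed by RMA in Affymetrix Expression Console 1.1 per the submitters' processing notes. RMA equalizes the distribution of probe values between arrays. A shift shared by all transcripts is therefore invisible, and dim genes give compressed differences. No filter on low values was applied. The genome build of the array's annotation is not given in the sources used here.

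Of 35557 rows, 21789 had 1 symbol in the platform annotation; 1621 had several and 12147 none. Taking the brightest row per gene left 19938 genes. One model of the 3 groups was fitted to the 9 arrays with empirical Bayes variances (limma 3.58.1 in R 4.3.3), and p-values were adjusted over all genes (Benjamini-Hochberg). The model was checked on simulated data. These were independent normal values, as the model assumes, so the check does not cover dependent replicates, array effects or dim genes. With 3 arrays a group the precision is limited, and since the replicates' origin is unknown, p-values reflect only the spread among the arrays at hand, possibly technical.

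The 10 members and the gene lists were chosen with earlier results of these data known, so their calls are not independent evidence. Besides the members, the rule names, per list and comparison, up to 2 called genes with the largest rise and 2 with the largest fall, or the gene with the smallest p, and the 2 genes closest to each called member, leaving out clone and model names; genes named outside it were chosen after their values were seen. Alternatives were other normalization or centring, filters on dim genes, all rows or mean rows, intensity trend, robust variances, array weights, fits of 2 groups alone, a replicate block, omission of single arrays, and other thresholds.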

Additional observations from a re-analysis of the deposited data

How the results depend on the processing

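Of 684 values of the members under 23 alternatives, 665 kept their direction and their side of the threshold. Many alternatives leave a member's difference unchanged by construction, such as an intensity trend, robust variances, all rows, or omission of an array outside the comparison. The 684 values are therefore not separate checks. With no minimum difference, 8 further values passed, and the members higher and lower in ES cells against fibroblasts numbered 5 and 2. With a minimum of 1.5 log2 units, 6 lost their call; 0 members were then lower in ES cells against fibroblasts, and 2 were higher between dedifferentiated and ES cells. Sox17 in ES cells against fibroblasts lost its call without fibroblast replicate 2 (0.99). Uncalled values near 0 turned sign for Hnf4a in ES cells against fibroblasts (-0.04 after quantile normalization and -0.05 after median centring), and, between dedifferentiated and ES cells, for Cubn (-0.29 to 0.12 when single arrays were left out) and Lrp2 (-0.02 to 0.21). The sign turned without ES replicate 3 for Cubn and without ES replicate 2 for Lrp2. Leaving out any 1 array left the counts of called members as reported, apart from Sox17.

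Over all genes, the counts moved by more than 1.5 times with all rows of the table, where 35557 rows were tested in place of 19938 genes. They were then 3056 higher in dedifferentiated cells and 2900 in ES cells against fibroblasts, and 443 higher and 190 lower between dedifferentiated and ES cells. With no minimum difference they were 4977 higher and 4468 lower, 5203 and 4570, and 2236 and 2003 in the 3 comparisons, and with a minimum of 1.5 they were 840 and 1241, 897 and 1311, and 50 and 13. Median centring put the median of all genes at -0.114 and -0.103 in the comparisons with fibroblasts, against 0.006 and 0.016. Correlations of deviations between same-numbered arrays ran from -0.204 to 0.25, not above 0.1 for every pair. The numbers were therefore not taken to pair samples. The replicate block left each of the 30 member values on its side of the threshold, with 5 members higher between dedifferentiated and ES cells. In this balanced design a block can change the p-values but not the differences, so that outcome does not bear on pairing. Changes of counts with the threshold follow from its construction, and the counts with all rows are taken over more rows. Any further cause was not tested. The values come with no background level or detection call. Low levels, such as those of Hnf4a or of Lrp2 and Cubn in fibroblasts, therefore cannot be told from none.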

Other observations

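Markers of liver and gut, kidney tubule and cardiomyocytes gave no call between dedifferentiated and ES cells. Of 7 liver and gut markers, none of the 3 comparisons gave a call by limma (0 genes), with Ahsg, a plasma glycoprotein of fetal liver, at -0.28 in dedifferentiated cells against fibroblasts (adjusted p = 0.047) and -0.16 in ES cells against fibroblasts, and Fabp2 at -0.12 between dedifferentiated and ES cells. Kidney tubule markers had Cdh16 at -0.26 and -0.14 in dedifferentiated cells against fibroblasts and ES cells, and Aqp1 at -0.20 in ES cells against fibroblasts, none of them called. Of 9 cardiomyocyte markers, 1 (11.1%) rose in each comparison with fibroblasts, near the 8.79% and 8.85% of all genes that rose. It was the natriuretic peptide gene Nppb, at 1.65 in dedifferentiated cells and 1.34 in ES cells. Between dedifferentiated and ES cells 0 were called by limma, and Actc1 differed by 0.78 (adjusted p = 5.8e-05).

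Trophoblast, the other extraembryonic lineage of the blastocyst, had 5 of 8 markers higher in dedifferentiated cells and 3 of 8 in ES cells against fibroblasts. Of all genes, 8.79% and 8.85% were higher there. The list shares Hand1 with the cardiac partners of GATA factors and Eomes with anterior visceral and definitive endoderm. Rises of these genes are therefore counted in both lists, and Cdx2 also belongs to the liver and gut list. Tfap2c rose by 4.37 and 4.08 and the keratin Krt7 by 2.63 and 3.55. Cdx2 (0.11 and 0.12), Elf5 (-0.03 and -0.02) and Gata3 (0.26 and 0.13), named after their values were seen, were not called. Between dedifferentiated and ES cells 0 of 8 were called by limma, and Krt7 differed by -0.92 (adjusted p = 0.0013). The list's mean log2 value was 6.07 to 6.16 on dedifferentiated arrays, 5.99 to 6.11 on ES arrays and 4.64 to 4.71 on fibroblast arrays.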
